A study of Citrus sinensis with 30 samples.

Results

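The enzymes that make, convert and remove reactive oxygen were followed in stored orange pulp through 62 of the 24179 genes in the deposited expression table. A gene was included if its annotated description held the words peroxidase, superoxide dismutase, catalase, dehydroascorbate reductase or respiratory burst oxidase. The 62 genes comprised 44 class III peroxidases, 6 respiratory burst oxidases (RBOH), 3 superoxide dismutases (SOD), 3 ascorbate recycling reductases, 2 ascorbate peroxidases, 1 catalase, 1 glutathione peroxidase and 2 further genes whose descriptions name an enzyme of the set without being one. Of these, 30 reached an FPKM (fragments per kilobase of transcript, scaled to the fragments of the library) of at least 1 in at least 3 libraries and were tested.

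The fruit belonged to ‘Tarocco’ blood orange (TBO), whose pulp gains anthocyanin pigment in the cold, and to ‘Bingtangcheng’ sweet orange (BTSO), whose pulp stays orange, and both are Citrus sinensis. Mature fruit were purchased, bagged singly in polyethylene and kept in a cool chamber, and juice sacs, the juice-filled hairs of the segments, were taken from 5 fruit per group on 5 occasions, at the start of storage (0 DAS, days after storage) and at 15, 30, 60 and 90 DAS. RNA-seq was run on 3 biological replicates of each variety on each day, which gave 10 groups and 30 libraries. The number of trees behind the fruit is not given, so that variety cannot be told apart from the history of its trees.

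An RBOH is a membrane NADPH oxidase that passes electrons to oxygen and so releases superoxide outside the cell, and SOD turns superoxide into hydrogen peroxide. Catalase breaks hydrogen peroxide down in peroxisomes, ascorbate peroxidase reduces it with ascorbate, and monodehydroascorbate reductase returns the oxidized ascorbate to use. Class III peroxidases are secreted haem enzymes that use hydrogen peroxide to oxidize phenolics, among them lignin precursors and, in test assays, anthocyanins.

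Replicates of a group correlated with r between 0.969 and 0.985 on the log2 scale across genes, and the libraries listed 33 to 46 of the 62 members above 0. The total of the estimated counts, which are not read numbers, ran from 51894138 to 75833189 per library. PH8 (Cs1g16150), a vacuolar proton pump gene of acid juice sacs, ran from 30.1 to 61.4 FPKM in the 15 TBO libraries and from 1.43 to 7.28 in the 15 BTSO libraries. The pigment pathway gene GST (Cs6g15900) was at 174 to 891 FPKM in TBO and 0.268 to 4.33 in BTSO. The paper took both genes from those that differed between the varieties on all days in these same libraries. Their separation was thus fixed beforehand and is no separate check of the variety labels. The summed level of 7 green tissue genes was 15.7 to 41.5 FPKM, and of 5 seed genes 12.2 to 27.8 FPKM, in all libraries. Each library is bulk tissue, in which fewer cells of a type and less RNA per cell cannot be told apart.

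Catalase held the largest mean share of the summed FPKM of the 62 members, 26.0% (20.2% to 33.7% over the 30 libraries). Class III peroxidases held 19.8% (11.6% to 38.3%), the widest span of any class, and ascorbate recycling reductases 16.6%. SOD held 11.7%, ascorbate peroxidases 7.94%, glutathione peroxidase 3.37%, RBOH 1.85% and the 2 further genes 12.6%. Over the 30 libraries together the peroxidase 55-like Cs2g25450 supplied 76.6% of the summed FPKM of class III peroxidases, although in BTSO at 0 DAS its mean of 67.6 FPKM was beside 67.0 FPKM of peroxidase 42 (Cs2g03110). The other classes were led in the same way by 1 gene each, with 54.4% of the RBOH sum in RBOH C (Cs7g19320) and 77.8% of the SOD sum in the iron SOD Cs7g19250.

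**Figure D1:**
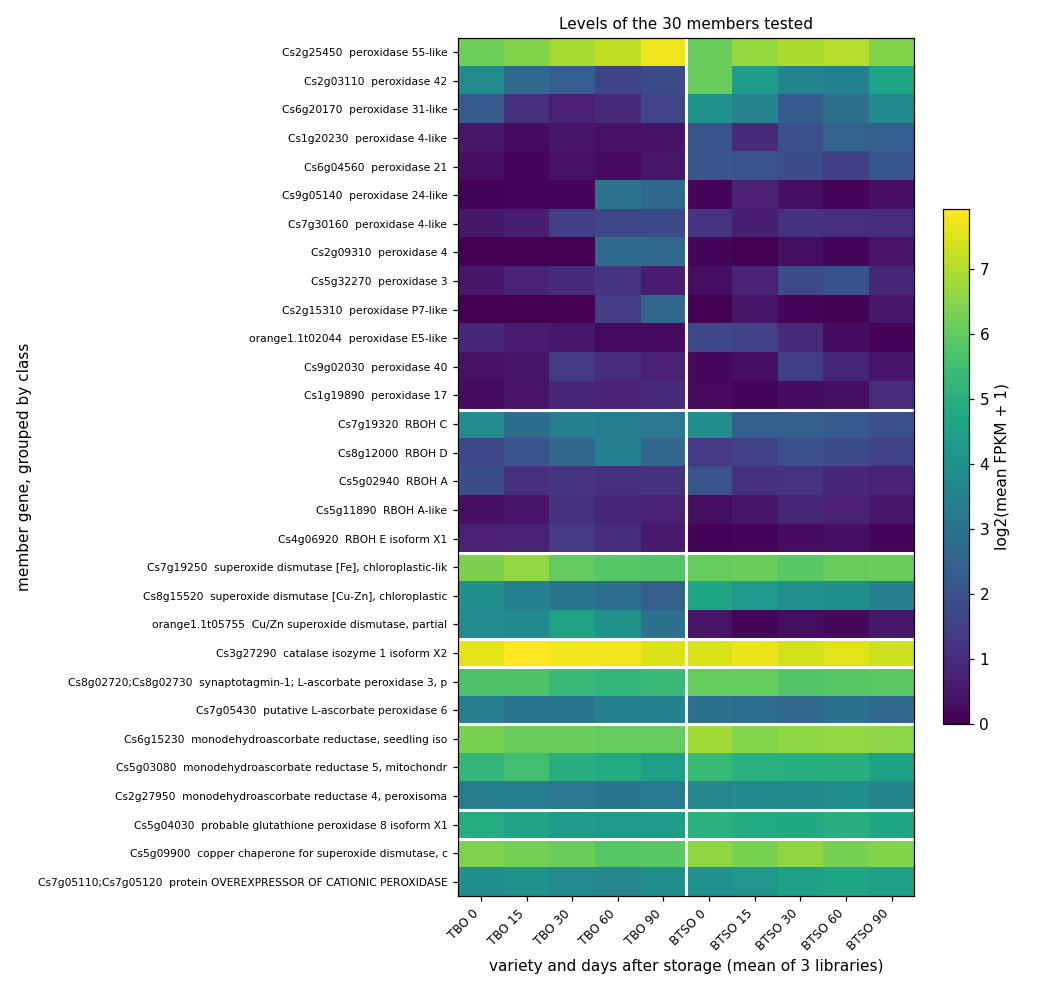
Colour gives log2(mean FPKM + 1) of the 30 members tested, 1 row per gene grouped by class with white lines between classes, for the 5 storage days of TBO (left) and BTSO (right), each a mean of 3 libraries. The catalase Cs3g27290 and the peroxidase 55-like Cs2g25450 have the highest levels, and the peroxidases Cs9g05140, Cs2g09310 and Cs2g15310 are dark everywhere but in TBO at 60 and 90 DAS.

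The members tested differed between the varieties on some days and in both directions. A gene was called between varieties at an unadjusted p under 0.05 with a log2 difference over 1, in limma on log2(FPKM + 1), a scale that understates the change of genes with low levels. At 0 DAS 5 of the 30 members were called, against 7.93% of all 16578 genes tested, with 1 higher (3.9% of all genes) and 4 lower (4.03%) in TBO. At 15 DAS 4 were called (8.95% of all genes), 1 higher (5.17%) and 3 lower (3.78%). At 30 DAS 7 were called (10.8%), 3 higher (5.56%) and 4 lower (5.28%), or 2 higher and 5 lower when libraries were scaled to their upper quartile. At 60 DAS 12 were called (11.4%), 6 higher (6.67%) and 6 lower (4.74%), and at 90 DAS 11 were called (10.9%), 6 higher (5.95%) and 5 lower (4.94%). The 12 members of 60 DAS make up 40% of those tested. Groups of 3 libraries that do not overlap were common in these data, at 55.5%, 60.9%, 57.1%, 57.6% and 59.8% of all genes from 0 to 90 DAS, and were found for 17, 16, 20, 23 and 23 of the 30 members. The median log2 difference of the members was -0.10 at 0 DAS and 0.07 at 90 DAS, beside 0.06 and 0.08 for all genes tested.

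Altogether 14 of the 30 members were called on at least 1 day, against 20.9% of all genes tested, and 16 on none. No member was called higher on some days and lower on others. There were 4 members called in 1 direction on all 5 days, 1 higher (1.36% of all genes tested) and 3 lower (1.59%) in TBO, or 2.95% of all genes in either direction. The filter itself favours genes that are high in some group: 14 of the 30 members were at 1 FPKM or more in all 30 libraries. By contrast, 3 reached that level in TBO alone and 2 in BTSO alone. A further 11 reached it in both varieties but not in all libraries. Some of these 11 still passed through 1 variety, such as orange1.1t05755 with 15 TBO libraries and 1 BTSO library.

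Of the class III peroxidases, 3 were lower in TBO on every day, and a further one on all days but 15 DAS. The most abundant of them was peroxidase 42 (Cs2g03110). At 0 DAS its 3 libraries read 10.7, 17.8 and 11.8 FPKM in TBO and 60.3, 76.9 and 63.7 in BTSO, and at 90 DAS 3.00, 1.61 and 3.13 in TBO and 18.0, 24.5 and 26.8 in BTSO. No TBO library reached a BTSO library of the same day at any of the 5 days. The log2 difference was -2.26 (SE 0.20, adjusted p = 7.53e-09) at 0 DAS, smallest at 30 DAS with -1.17 (adjusted p = 4.11e-05) and largest at 90 DAS with -2.76 (adjusted p = 1.65e-10). The gap at 30 DAS was -0.96 without the second BTSO library of that day, which ends the call there.

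Peroxidase 42 also fell with storage in both varieties, a call that no other class III peroxidase had. Its mean level went from 13.4 ± 3.8 (SD, n = 3) to 2.58 ± 0.84 FPKM in TBO and from 67.0 ± 8.8 to 23.1 ± 4.5 FPKM in BTSO between 0 and 90 DAS. The log2 changes were -2.01 (adjusted p = 2.47e-08) and -1.51 (adjusted p = 2.5e-06, SE 0.20), and the difference between these changes was not significant (-0.50, SE 0.29, adjusted p = 0.277). In BTSO the level passed through a minimum, with means of 11.0 and 10.2 FPKM at 30 and 60 DAS before the 23.1 FPKM of 90 DAS.

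Peroxidase 31-like (Cs6g20170) was also lower in TBO on every day, but its change from 0 to 90 DAS was called in neither variety. In BTSO its mean was 15.7 FPKM at 0 DAS, 3.93 at 30 DAS and 12.8 at 90 DAS. In TBO it had means of 3.78, 0.654 and 2.13 FPKM on those days. It read 4.26, 4.03 and 3.05 FPKM in TBO at 0 DAS against 14.8, 17.9 and 14.6 in BTSO, and 1.74, 1.92 and 2.73 against 8.75, 14.1 and 15.6 at 90 DAS. The highest TBO value of any day, 4.26 FPKM, lay above only the lower BTSO libraries of 30 and 60 DAS, and within each day the varieties did not overlap. Its log2 difference lay between -2.28 and -1.57 over the days (SE 0.29, highest adjusted p = 8.64e-05). BTSO libraries of 15 DAS spread widely, at 5.11, 9.96 and 16.6 FPKM.

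Peroxidase 21 (Cs6g04560, chromosome 6, positions 5447041 to 5449145 as the table gives them) had no overlap between the varieties over all days. All 15 TBO libraries lay between 0.0307 and 0.510 FPKM and all 15 BTSO libraries between 1.38 and 5.06 FPKM. It passed the filter through BTSO alone, so part of its difference is fixed by the filter. The log2 difference ran from -1.87 to -1.22 (SE 0.20, highest adjusted p = 2.33e-05), with no called change over storage in either variety (0.19 in TBO and 0.02 in BTSO).

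A peroxidase 4-like gene (Cs1g20230), named here after its values were seen, also reached 1 FPKM in BTSO alone. It thus passed the filter through BTSO, so part of its difference is fixed by the filter. At 60 DAS its libraries read 0.0813, 0.462 and 0.330 FPKM in TBO and 3.48, 3.56 and 7.15 in BTSO. The varieties did not overlap on any day, and the log2 difference was largest at 60 DAS (-2.10, SE 0.24, adjusted p = 1.87e-07) and smallest at 15 DAS (-0.65, adjusted p = 0.0277), when the BTSO libraries were at 0.604, 1.29 and 0.863 FPKM.

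**Figure D2:**
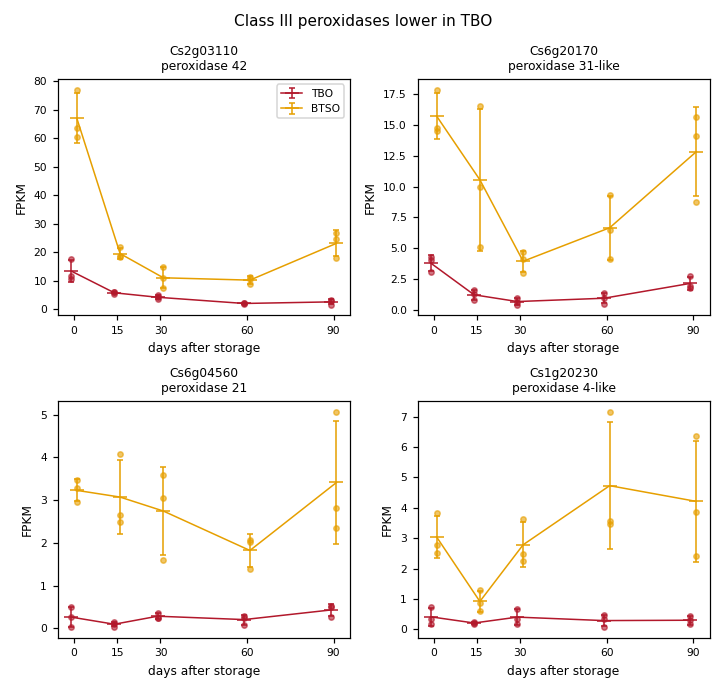
FPKM (linear axis) against days after storage for 4 class III peroxidases, with points for single libraries, horizontal marks for the mean of 3 and bars for ± 1 SD, TBO in red and BTSO in orange. In all 4 panels the TBO points lie below the BTSO points of the same day, from 10.7 to 17.8 against 60.3 to 76.9 FPKM for Cs2g03110 at 0 DAS.

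A different set of class III peroxidases appeared late and in TBO. Peroxidase 24-like (Cs9g05140), peroxidase 4 (Cs2g09310) and peroxidase P7-like (Cs2g15310) were at or near 0 in TBO through 30 DAS and were present in all 6 TBO libraries of 60 and 90 DAS. Cs2g09310 reached 1 FPKM in TBO alone, in 6 libraries. Cs9g05140 did so in 6 TBO libraries and 1 BTSO library, and Cs2g15310 in 5 and 1. All of them thus passed the filter through late TBO libraries, so part of their differences is fixed by the filter.

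Cs9g05140 was listed at 0 in 5 of the 9 TBO libraries of 0 to 30 DAS, the highest of which held 0.246 FPKM. At 60 DAS the TBO libraries read 5.70, 4.97 and 10.7 FPKM and at 90 DAS 6.47, 1.76 and 7.89. In BTSO it stayed at or below 0.607 FPKM apart from the third library of 15 DAS, which held 1.95 FPKM. On each of the late days the varieties did not overlap. The log2 difference was 2.83 (SE 0.36, adjusted p = 7.88e-07) at 60 DAS and 2.21 (adjusted p = 1.99e-05) at 90 DAS, and the rise in TBO from 0 to 90 DAS was 2.44 (adjusted p = 4.91e-06) beside 0.15 in BTSO (adjusted p = 0.757).

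Cs2g09310 was listed at 0 in all 9 TBO libraries of 0, 15 and 30 DAS. It then read 1.70, 4.24 and 11.3 FPKM at 60 DAS and 6.89, 2.21 and 7.47 at 90 DAS. The 15 BTSO libraries did not exceed 0.678 FPKM, so the late TBO libraries lay above all of them. Only 3 of those 15 listed the gene at 0. Its BTSO mean went from 0.0954 FPKM at 0 DAS to 0.337 at 90 DAS, a rise that was not called. Its log2 difference reached 2.34 (SE 0.35, adjusted p = 7.09e-06) at 60 DAS and 2.19 (adjusted p = 1.49e-05) at 90 DAS.

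Cs2g15310 read 2.70, 0.599 and 1.89 FPKM at 60 DAS and 5.48, 2.28 and 7.55 at 90 DAS in TBO. It was listed at 0 in 7 of the 9 earlier TBO libraries and in 7 of the 15 BTSO libraries, and the highest BTSO value was again that of the third library of 15 DAS, 1.15 FPKM. Its BTSO mean went from 0.0121 FPKM at 0 DAS to 0.440 at 90 DAS, a rise that was not called. Late TBO and BTSO libraries of the same day did not overlap. On the log2 scale the varieties differed by 1.32 (SE 0.29, adjusted p = 0.000545) at 60 DAS and 1.99 (adjusted p = 4.35e-06) at 90 DAS.

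The second TBO library of 90 DAS was the lowest of its group for each of them, and for Cs2g25450 and Cs7g30160 as well, and the differences at 90 DAS were larger without it (2.73, 2.64 and 2.39 for Cs9g05140, Cs2g09310 and Cs2g15310). What set that library apart was not tested. The variety difference changed between 0 and 90 DAS by 2.29 (adjusted p = 0.00358), 2.32 (adjusted p = 0.00248) and 2.01 (adjusted p = 0.00166) on the log2 scale. In edgeR on the estimated counts, that change was no longer past the threshold for Cs9g05140 (log2 change 5.51, adjusted p = 0.130) and Cs2g15310 (6.99, adjusted p = 0.315), while that of Cs2g09310 was (10.3, adjusted p = 0.0160). The edgeR changes were larger than those of limma, but start from libraries at or near 0 and so depend on the prior count. With a pseudocount of 0.1 in place of 1, the fitted differences at 90 DAS were 4.12, 3.83 and 3.23, so their size depends on the scale used for low values.

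Further class III peroxidases below the limit for testing, named after their values were seen, showed late TBO values too. The peroxidase 3-like Cs9g05130 (chromosome 9, positions 2995165 to 2997538), whose identifier is next to that of Cs9g05140, read 1.81, 0.123 and 1.74 FPKM in TBO at 90 DAS, again with the second library lowest, and 0.478, 0.197 and 0.282 in BTSO. Peroxidase A2 (orange1.1t02041) read 0.793, 0.818 and 0.671 FPKM in TBO at 90 DAS against 0.0814, 0 and 0.186 in BTSO, with its highest value, 1.13 FPKM, in the third BTSO library of 15 DAS. These values were not tested.

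The most abundant class III peroxidase among the members, peroxidase 55-like (Cs2g25450, mean 114 FPKM over the 30 libraries), was not called between the varieties until 90 DAS. At 0 DAS its libraries read 84.0, 66.1 and 64.3 FPKM in TBO and 80.5, 60.2 and 62.2 in BTSO, and at 90 DAS 275, 176 and 198 in TBO and 121, 71.8 and 62.1 in BTSO. The groups overlapped on each day up to 60 DAS and did not overlap at 90 DAS. TBO exceeded BTSO by 1.37 on the log2 scale at 90 DAS (SE 0.24, adjusted p = 4.33e-05), a 2.55-fold ratio of the means, and lay between -0.23 and 0.18 on the other days. It rose by 1.57 in TBO (adjusted p = 7.31e-06) and by 0.28 in BTSO, short of the threshold (adjusted p = 0.354), and the difference between the 2 changes was 1.29 (SE 0.34, adjusted p = 0.0124). The BTSO libraries of 60 DAS were spread from 89.3 to 184 FPKM.

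The summed level of the 44 class III peroxidases, of which Cs2g25450 had the highest mean level, changed its order between the varieties. In TBO the sum went from 92.6 ± 9.5 FPKM at 0 DAS to 247 ± 59 at 90 DAS, and in BTSO from 162 ± 8.7 to 135 ± 27 (SD, n = 3). The TBO libraries lay below the BTSO libraries at 0 DAS (82.9 to 102 against 152 to 168 FPKM) and above them at 90 DAS (193 to 309 against 118 to 166 FPKM). The gap at 0 DAS held mostly peroxidase 42 (Cs2g03110), with means of 13.4 FPKM in TBO and 67.0 in BTSO, and that at 90 DAS mostly Cs2g25450, with 216 and 85.0. With 3 libraries a group, an exact permutation test of such a sum cannot go below a two-sided p of 0.1.

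A peroxidase 4-like gene (Cs7g30160, chromosome 7, positions 30278464 to 30280224) rose in TBO from 0.331, 0.610 and 0.266 FPKM at 0 DAS to 2.85, 1.04 and 3.44 at 90 DAS. In BTSO it read 1.06, 1.15 and 1.64 FPKM at 0 DAS and 1.18, 0.599 and 1.34 at 90 DAS. TBO was the lower variety at 0 DAS, without overlap, and its 90 DAS libraries overlapped those of BTSO. The rise in TBO was 1.23 (SE 0.26, adjusted p = 0.000312) beside -0.17 in BTSO (adjusted p = 0.607), and the change of the difference was 1.40 (adjusted p = 0.0122), although the gene was called between varieties on no day.

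**Figure D3:**
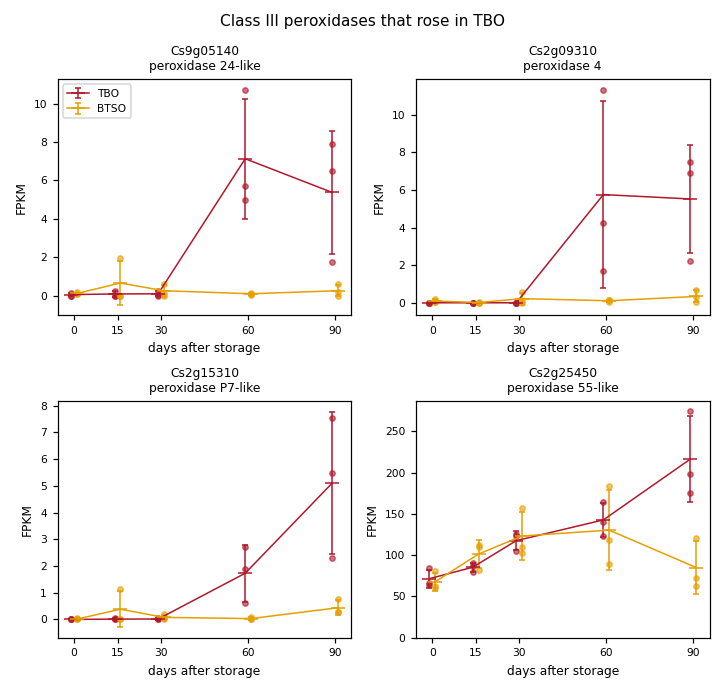
FPKM (linear axis) against days after storage for Cs9g05140, Cs2g09310, Cs2g15310 and Cs2g25450, with points for single libraries, horizontal marks for the mean of 3 and bars for ± 1 SD, TBO in red and BTSO in orange. The first 3 genes are near 0 in all TBO libraries up to 30 DAS and between 0.599 and 11.3 FPKM afterwards, and Cs2g25450 reaches 275 FPKM in TBO at 90 DAS.

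Peroxidase E5-like (orange1.1t02044, unplaced sequence, positions 32247294 to 32250519) went the other way in BTSO. It read 2.27, 2.35 and 2.16 FPKM there at 0 DAS and 0.0847, 0.0762 and 0 at 90 DAS, and 0.466, 1.297 and 0.945 against 0.264, 0.262 and 0.113 in TBO. Within BTSO the days did not overlap, and the log2 change was -1.63 (SE 0.21, adjusted p = 1.95e-06), beside -0.63 in TBO (adjusted p = 0.0160). The difference between these changes, 1.00 (adjusted p = 0.0311), lost its call when any of 7 libraries was left out, with adjusted p from 0.0510 to 0.0959. The gene was the only one tested of 6 peroxidase genes that the table places between positions 32146097 and 32254588 of the unplaced sequence. It reached 1 FPKM in 7 BTSO libraries and 1 TBO library. It thus passed the filter through early BTSO libraries, which favours a fall there.

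The other class III peroxidases tested were not called between varieties or over storage. They were peroxidase 3 (Cs5g32270), peroxidase 40 (Cs9g02030) and peroxidase 17 (Cs1g19890), with mean levels of 1.12, 0.713 and 0.472 FPKM, named after their values were seen. Cs5g32270 had its highest mean in BTSO at 60 DAS, at 2.85, 3.38 and 2.63 FPKM against 1.47, 1.44 and 0.964 in TBO, a log2 difference of -0.79 (adjusted p = 0.00373). The 31 class III peroxidases left out of the tests were at most at 1.81 FPKM in any library, and 3 of them reached 1 FPKM. Among all 32 members not tested, 19 were listed at 0 in at least 20 of the 30 libraries. Reads shared between near-identical peroxidase copies could not be separated from the table, so that the level of one copy may hold reads of another.

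Among the oxidases that produce superoxide, RBOH C (Cs7g19320), named like the Arabidopsis gene of root hair growth, fell further in BTSO than in TBO. At 0 DAS the libraries read 13.0, 14.4 and 12.0 FPKM in TBO and 13.1, 18.0 and 11.3 in BTSO, and at 90 DAS 7.45, 7.46 and 8.31 in TBO and 3.48, 2.48 and 2.84 in BTSO. The groups overlapped at 0 and 15 DAS, and from 30 DAS the varieties stood apart, with TBO higher. The change from 0 to 90 DAS was -1.93 in BTSO (SE 0.16, adjusted p = 3.7e-09) and -0.69 in TBO (adjusted p = 0.000893), and these changes differed by 1.24 (adjusted p = 0.000692). The variety difference passed the limit on the last 3 days, with 1.01 (adjusted p = 1.65e-05), 1.08 (7.06e-06) and 1.16 (2.6e-06). The call at 30 DAS lies at its limit, since the difference was 0.92 with upper-quartile scaling, 0.93 without the first TBO library of that day and 0.86 without the second BTSO library.

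In both varieties RBOH C was already low at 15 DAS, when the means were 6.01 ± 1.3 FPKM in TBO and 4.26 ± 1.1 in BTSO. TBO libraries then read 10.9, 8.99 and 9.29 FPKM at 30 DAS, above all those of 15 DAS, while the BTSO libraries of 30 DAS, at 5.02, 3.32 and 4.80, lay within the range of 15 DAS.

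RBOH D (Cs8g12000), whose Arabidopsis namesake makes the oxidative burst of the immune response, had its maximum in TBO at 60 DAS. Its TBO libraries read 2.04, 2.12 and 2.59 FPKM at 0 DAS, then 5.12, 5.13 and 5.23 at 30 DAS, rising to 11.7, 7.18 and 11.9 at 60 DAS before 5.27, 4.35 and 5.94 at 90 DAS. All BTSO libraries lay between 0.833 and 2.88 FPKM, and the varieties did not overlap from 15 DAS onward. The gap was 1.60 on the log2 scale at 60 DAS (SE 0.17, adjusted p = 4.34e-08), a 3.89-fold ratio of the means, and 0.99 at 90 DAS (adjusted p = 3.02e-05), just under the limit of 1.

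The remaining RBOH genes tested, named after their values were seen, were low. RBOH E (Cs4g06920) was higher in TBO on all days without overlap, with 1.59, 1.32 and 1.49 FPKM at 30 DAS against 0.300, 0.140 and 0.174 in BTSO, and its log2 difference passed 1 at 30 DAS alone (1.04, SE 0.11, adjusted p = 3.76e-08). It reached 1 FPKM in TBO alone, as did RBOH A-like (Cs5g11890), for which the largest difference was 0.30 at 30 DAS. RBOH A (Cs5g02940, chromosome 5, positions 1427603 to 1434496) read 3.35, 3.45 and 2.52 FPKM in BTSO at 0 DAS and 0.627, 0.702 and 0.839 at 90 DAS, a change of -1.25 (SE 0.11, adjusted p = 7.85e-09), beside -0.74 in TBO, and these changes differed by 0.51 (adjusted p = 0.0346).

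The mean summed RBOH level at 0 DAS was 19.0 ± 1.0 FPKM in TBO and 19.0 ± 4.5 in BTSO (SD, n = 3), and 22.5 ± 3.0 against 8.19 ± 0.76 FPKM at 60 DAS. At 60 DAS the TBO libraries, at 19.1 to 24.8 FPKM, lay above all BTSO libraries, at 7.47 to 8.99 FPKM. Of the 5 RBOH genes tested, 2 were called higher in TBO at 30 DAS (5.56% of all genes tested), 2 at 60 DAS (6.67%) and 1 at 90 DAS (5.95%). Of these 5, RBOH E and Cs5g11890 passed the filter through TBO libraries alone, which favours a higher level in TBO.

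The 3 SOD genes showed unlike patterns. The gene annotated as a partial Cu/Zn SOD (orange1.1t05755) was present in TBO and nearly absent from BTSO on all days. Its TBO libraries read 14.7, 16.3 and 8.0 FPKM at 0 DAS, then 10.0, 12.6 and 14.6 at 15 DAS, followed by 40.2, 10.7 and 17.7 at 30 DAS. They were at 18.8, 8.06 and 19.6 FPKM at 60 DAS, and 90 DAS gave the lowest values, 11.3, 6.21 and 3.43. The 15 BTSO libraries did not exceed 1.09 FPKM, and 5 of them listed the gene at 0. The varieties thus did not overlap at all, and the TBO replicates themselves spread widely. Over the 5 days the log2 difference ran 3.36, 3.62, 4.09, 3.78 and 2.45 (SE 0.40, highest adjusted p = 1.96e-05). Without the first TBO library of 30 DAS it was 3.60 on that day. The gene reached 1 FPKM in all 15 TBO libraries and in 1 BTSO library. It thus passed the filter through TBO, so part of its difference is fixed by the filter. Whether a difference in gene sequence between the varieties changes how reads of this gene align was not tested.

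The chloroplast Cu-Zn SOD (Cs8g15520) fell in both varieties and was lower in TBO throughout. Its libraries read 13.1, 16.1 and 13.7 FPKM in TBO and 21.6, 24.7 and 27.4 in BTSO at 0 DAS, and 4.96, 3.90 and 3.79 in TBO and 7.70, 10.3 and 11.0 in BTSO at 90 DAS. The varieties did not overlap on any day. The change from 0 to 90 DAS was -1.56 in TBO (SE 0.15, adjusted p = 1.14e-08) and -1.27 in BTSO (adjusted p = 4.23e-07), and the 2 changes did not differ significantly (-0.29, adjusted p = 0.420). The variety difference was -0.74 at 0 DAS and passed the limit at 60 DAS (-1.07, adjusted p = 2.59e-06) and at 90 DAS (-1.03, adjusted p = 4.54e-06), where leaving out any of 4 libraries brought it to between -0.98 and -0.93.

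The chloroplast iron SOD (Cs7g19250), the most abundant of the 3 (mean 68.4 FPKM), changed its order between the varieties. At 0 DAS it read 84.4, 91.3 and 69.5 FPKM in TBO and 65.7, 66.1 and 64.1 in BTSO, and at 90 DAS 53.0, 60.8 and 50.8 in TBO and 62.7, 67.5 and 75.0 in BTSO. TBO lay above BTSO without overlap at 0 DAS and below it without overlap at 90 DAS. In log2 terms TBO differed by 0.31 at first (SE 0.12, adjusted p = 0.0304), by 0.49 at 15 DAS (adjusted p = 0.00112) and by -0.31 in the end (adjusted p = 0.0259), and its change from 0 to 90 DAS was -0.62 (adjusted p = 0.0129). No single difference passed the limit of 1.

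The products of the 2 latter genes work in plastids, and the summed level of the 7 green tissue genes also moved with storage. The TBO libraries held 30.0 to 35.0 FPKM at 0 DAS and 16.8 to 21.7 at 90 DAS, and the BTSO libraries 33.0 to 41.5 and then 17.3 to 19.3. Of these 7 genes, 1 fell in TBO (3.78% of all genes tested) and 2 fell in BTSO (2.98%) past the threshold. All 7 passed the filter, and none had a mean level above 5.95 FPKM. Of the chloroplast SOD genes, Cs8g15520 fell in both varieties. The mean of the iron SOD fell in TBO, from 81.7 to 54.8 FPKM, but not in BTSO, with 65.3 and then 68.4 FPKM. The part of the green tissue genes in these changes was not tested.

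**Figure D4:**
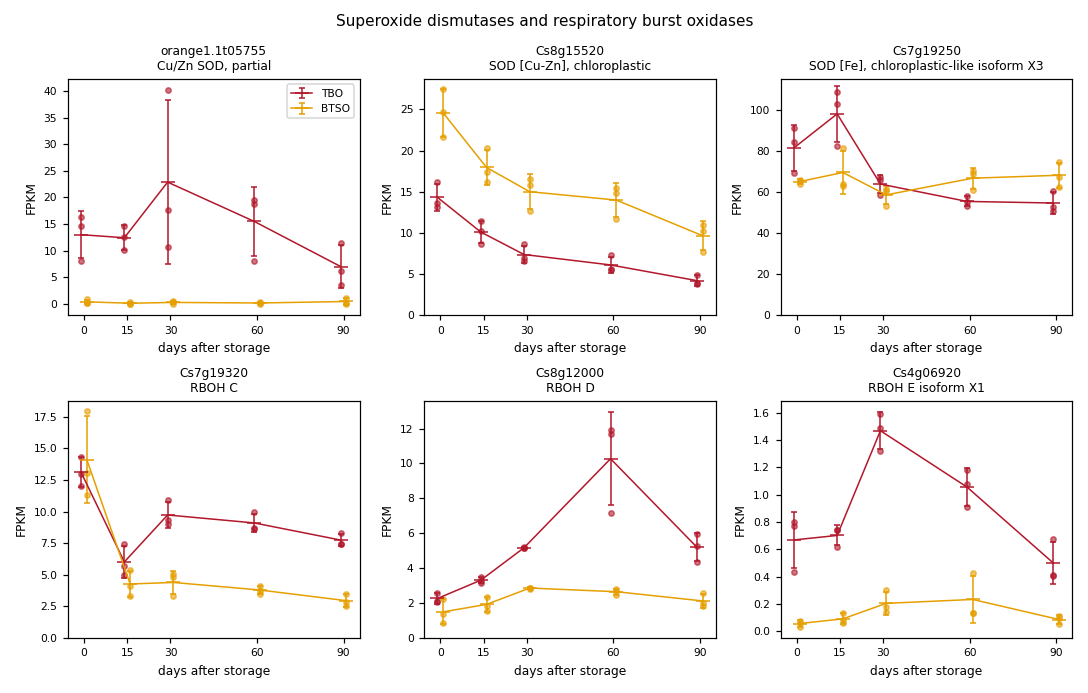
FPKM (linear axis) against days after storage for the 3 SOD genes (upper row) and RBOH C, D and E (lower row), with points for single libraries, horizontal marks for the mean of 3 and bars for ± 1 SD, TBO in red and BTSO in orange. The partial Cu/Zn SOD orange1.1t05755 stays at or below 1.09 FPKM in BTSO, RBOH C overlaps between varieties at 0 DAS and parts later, and RBOH D peaks in TBO at 60 DAS with a highest library of 11.9 FPKM.

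The enzymes that remove hydrogen peroxide through catalase, ascorbate and glutathione peroxidase were abundant. None of these 7 genes was called between varieties on any day or over storage. Of all genes tested, 7.93% to 11.4% were called between varieties per day, and 11% in TBO and 7.29% in BTSO over storage. Catalase isozyme 1 (Cs3g27290) lay between 160 and 250 FPKM in TBO and between 146 and 219 in BTSO. Its largest difference was 0.34 at 30 DAS (SE 0.11, adjusted p = 0.0102), when TBO read 204, 238 and 205 FPKM and BTSO 157, 164 and 189. The groups did not overlap at 0, 15 and 30 DAS and did so later. Between 0 and 90 DAS it changed by -0.11 in TBO and -0.18 in BTSO (adjusted p = 0.381 and 0.182).

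The seedling isozyme-like monodehydroascorbate reductase (Cs6g15230) was lower in TBO on every day without overlap, by small amounts. At 60 DAS it read 66.1, 63.0 and 64.5 FPKM in TBO and 99.3, 110 and 87.7 in BTSO. The log2 difference lay between -0.60 and -0.37 over the days (SE 0.12, highest adjusted p = 0.0104). The peroxisomal monodehydroascorbate reductase 4 (Cs2g27950), named after its values were seen, was likewise lower on all days, with differences between -0.79 and -0.31. The mitochondrial monodehydroascorbate reductase 5 (Cs5g03080) fell short of the limit of 1 in both varieties (-0.78 in TBO and -0.85 in BTSO, adjusted p = 2.66e-05 and 1.54e-05), with TBO libraries at 32.3 to 41.4 FPKM at 0 DAS and 19.3 to 22.5 at 90 DAS.

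The 2 ascorbate peroxidase genes differed between varieties in opposite directions. The locus that joins synaptotagmin-1 with the peroxisomal ascorbate peroxidase 3 (Cs8g02720 and Cs8g02730) read 48.5, 57.8 and 48.1 FPKM in TBO against 64.4, 67.3 and 62.8 in BTSO at 0 DAS and 37.7, 37.8 and 33.2 against 59.4, 60.2 and 53.6 at 60 DAS. It did not overlap on any day (log2 difference -0.66 to -0.32, SE 0.10, highest adjusted p = 0.00717), and the merged locus does not show which of the genes carried the difference. Ascorbate peroxidase 6 (Cs7g05430) was higher in TBO, at 9.39, 11.6 and 9.28 FPKM against 5.69, 5.82 and 5.32 at 90 DAS (log2 difference 0.74, SE 0.11, adjusted p = 9.6e-06). Its groups overlapped at 15 DAS alone.

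Glutathione peroxidase 8 (Cs5g04030), of a family that in plants draws mainly on thioredoxin, was at 16.4 to 31.5 FPKM in TBO and 19.6 to 34.7 in BTSO. Its largest difference was -0.64 at 60 DAS (SE 0.13, adjusted p = 0.00033), with 20.8, 19.7 and 16.4 FPKM in TBO against 32.2, 34.7 and 24.2 in BTSO. The groups did not overlap at 15, 30 and 60 DAS.

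The 2 further genes name an enzyme without being one. The copper chaperone for SOD (Cs5g09900), which loads copper into Cu-Zn SOD, was at 46.6 to 90.9 FPKM in TBO and 64.0 to 105 in BTSO and was called on no day (largest difference -0.54 at 90 DAS, SE 0.14, adjusted p = 0.00257). The locus of Overexpressor of Cationic Peroxidase 3 (Cs7g05110 and Cs7g05120), in Arabidopsis a homeodomain regulator named for a mutant with raised peroxidase expression, was called lower in TBO at 60 DAS, at 13.2, 11.2 and 10.2 FPKM against 27.7, 25.9 and 20.8. The log2 difference was -1.03 (SE 0.14, adjusted p = 2.48e-06), and between -1.0 and -0.95 when any of 3 libraries was left out.

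The members called over 90 days of storage were mostly rises in TBO and all falls in BTSO. At an adjusted p under 0.05 and a log2 change over 1, 7 members changed in TBO (11% of all genes tested), of which 5 rose (7.24%) and 2 fell (3.78%). In BTSO 5 changed (7.29%), of which none rose (4.31%) and 5 fell (2.98%). The libraries of 0 and 90 DAS did not overlap for 20 members in TBO (63.1% of all genes) and 14 in BTSO (56.6%). The 5 that rose in TBO were all class III peroxidases (Cs2g09310, Cs2g15310, Cs9g05140, Cs2g25450 and Cs7g30160). Of these, Cs2g09310, Cs2g15310 and Cs9g05140 passed the filter through late TBO libraries, which favours a rise there. Peroxidase 42 and the chloroplast Cu-Zn SOD were called lower in both varieties, and RBOH C, RBOH A and peroxidase E5-like in BTSO. With edgeR 3 members were called higher and 6 lower in BTSO, and with a pseudocount of 0.1 these counts were 4 and 5, so the count of 0 that rose in BTSO depends on how low values are treated.

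The variety difference itself changed between 0 and 90 DAS for 9 of the 30 members, against 12.4% of all genes tested (adjusted p under 0.05), with 8 toward TBO (7.04%) and 1 toward BTSO (5.39%). Of the 8, 6 were class III peroxidases and 2 were RBOH genes, and the gene that moved toward BTSO was the iron SOD. The filter favours some of the 8. Cs2g09310, Cs9g05140 and Cs2g15310 passed it through late TBO libraries, and orange1.1t02044 through early BTSO libraries. The median change of the 30 members was 0.02, beside 0.03 for all genes tested. No catalase, ascorbate peroxidase, ascorbate recycling reductase or glutathione peroxidase gene was among the 9. The contrasts share the libraries of 0 and 90 DAS with those above.

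**Figure D5:**
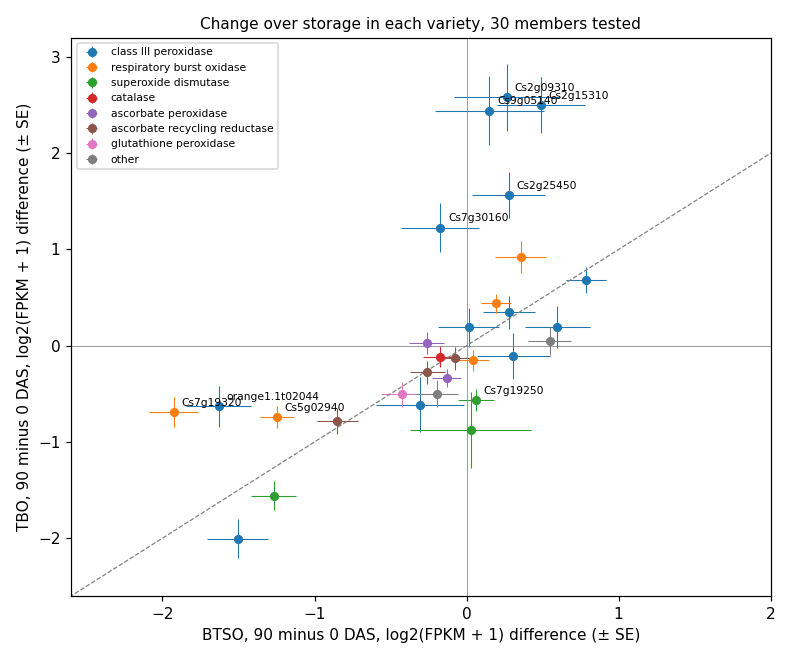
The change of each of the 30 members tested from 0 to 90 DAS in BTSO (horizontal axis) and in TBO (vertical axis), as log2(FPKM + 1) differences with bars of ± 1 SE, coloured by class. The dashed line marks equal change, labelled genes are the 9 whose changes differed, and the group of 3 near 2.5 on the TBO axis is Cs2g09310, Cs2g15310 and Cs9g05140.

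Genes that supply or complement these enzymes were taken from lists of descriptions. Of 8 genes of ascorbate synthesis and use, 6 were tested. At 90 DAS 1 was higher (5.95% of all genes tested) and none lower (4.94%) in TBO. At 0 DAS 1 was lower (4.03%) and none higher (3.9%). GDP-L-galactose phosphorylase 1 (Cs2g09880), the committed step toward ascorbate, was higher in TBO at 90 DAS by 1.36 (SE 0.17, adjusted p = 8.33e-07) and rose there by 1.28 over storage. GDP-mannose 3,5-epimerase 1-like (Cs8g02600), which acts earlier in that route, was lower in TBO at 0 DAS, with a log2 difference of -1.39 (adjusted p = 4.09e-06). The 3 genes tested for glutathione supply were called in no comparison, against 7.29% to 12.4% of all genes tested per comparison. Their log2 differences at 90 DAS were small: -0.48 for chloroplast glutathione reductase (adjusted p = 0.00176), 0.28 for the cytosolic one (0.00817) and 0.46 for glutathione synthetase (0.00528).

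Peroxiredoxins, are thiol enzymes that also remove peroxides. Of 5 genes 3 were tested, and 2 were called lower in TBO at 0 DAS (4.03% of all genes tested) and at 90 DAS (4.94%). At 15, 30 and 60 DAS 1 was called lower on each day (3.78%, 5.28% and 4.74%). Peroxiredoxin-2B (Cs4g16140, mean 272 FPKM) differed by -1.21 at 0 DAS and -1.01 at 90 DAS (SE 0.13, adjusted p = 1.84e-07 and 1.36e-06), and the chloroplast peroxiredoxin-2E (Cs6g15550, mean 21.2 FPKM) by -1.28 and -1.64 (SE 0.29, adjusted p = 0.000827 and 5.15e-05). The summed peroxiredoxin level was 194 to 293 FPKM in TBO and 518 to 584 in BTSO at 0 DAS, and 135 to 145 against 265 to 306 at 90 DAS, without overlap on either day.

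The choice by description left out genes of the same enzyme families. In the ortholog annotation of the table, 57 other genes carried the entries of the members, and 36 of these were tested. At 90 DAS 1 of the 36 was higher (5.95% of all genes tested) and 2 were lower (4.94%) in TBO. Over storage 2 rose (7.24%) and 3 fell (3.78%) in TBO, and 3 rose (4.31%) and 4 fell (2.98%) in BTSO. Among the members the variety difference changed toward TBO for 8, some of which the filter favours, and toward BTSO for 1. Of the 36 other genes, it changed toward TBO for 1 (7.04%) and toward BTSO for 4 (5.39%). Some of them were more abundant than any member of the same entry, such as Cs2g15180 of the class III peroxidase entry with a mean of 240 FPKM, Cs7g29850 of the iron and manganese SOD entry with a mean of 618 FPKM and Cs5g03830 of the glutathione peroxidase entry with 461 FPKM, so the class sums given here do not hold the whole of each enzyme family.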

How the data were processed

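Juice sac RNA of 30 libraries was sequenced by the authors. The deposited table holds FPKM values, which the authors computed with StringTie after merging the transcripts of all samples, and deposited whole-number estimated counts, used here in 1 alternative only. The submitters' notes list Bowtie 0.12.2, HISAT2 2.0 and StringTie 1.3.0. The build in those notes is a mouse build, so the build of the coordinates is unknown here, and the strand setting is not given in the sources used here. Coordinates are those of the table, which has them for 35 of the 62 members.

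The 16578 genes that reached 1 FPKM in 3 or more libraries were fitted in limma 3.58.1 under R 4.3.3, using log2-transformed FPKM (pseudocount 1), a mean for each of the 10 groups, a variance trend and Benjamini-Hochberg adjustment over all of them. Differences are TBO minus BTSO or 90 minus 0 DAS. All adjusted p-values are from limma unless edgeR (4.0.16) is named. The fit was tested on simulated data, in which changes were put only into genes of higher mean level. That test thus does not cover members of low level or the effect of the filter. Plots were made with matplotlib 3.10.9.

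Genes described were the 2 most abundant of each class, those called on all 5 days, the 6 with the largest change of the variety difference and, per variety, up to 3 called rises and 3 called falls. Members and lists were chosen with earlier results of these data known. Replicates are biological by their labels, and p-values measure the spread between these samples. Of 1494 genes with a mean FPKM over 50, 6 are listed at 0 in some library, so a 0 may be a failed estimate. Alternatives were a pseudocount of 0.1, no filter, upper-quartile scaling, a replicate block, the other p-value, only the groups compared, edgeR, and leaving out each library. Columns of the authors' own comparisons were not used.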

Additional observations from a re-analysis of the deposited data

Results flagged for a closer look

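For 8 of the members chosen by the rule for genes described, the effect of storage differed between the varieties by the limma test of the difference itself. RBOH A, named outside that rule after its values were seen, also passed this test, as given above. The change of the TBO minus BTSO difference from 0 to 90 DAS was 2.32 on the log2 scale for peroxidase 4 (Cs2g09310, adjusted p = 0.00248), 2.29 for peroxidase 24-like (Cs9g05140, adjusted p = 0.00358) and 2.01 for peroxidase P7-like (Cs2g15310, adjusted p = 0.00166). It was 1.40 for peroxidase 4-like (Cs7g30160, adjusted p = 0.0122), 1.29 for peroxidase 55-like (Cs2g25450, adjusted p = 0.0124) and 1.00 for peroxidase E5-like (orange1.1t02044, adjusted p = 0.0311). It was 1.24 for RBOH C (Cs7g19320, adjusted p = 0.000692) and -0.62 for the iron SOD (Cs7g19250, adjusted p = 0.0129). The late peroxidases and peroxidase 55-like rose in TBO, and RBOH C fell further in BTSO. Peroxidase E5-like also fell further in BTSO, and its log2 difference went from -0.80 at 0 DAS to 0.20 at 90 DAS. That of the iron SOD went from 0.31 to -0.31. The filter favours some of these changes. Cs2g09310, Cs9g05140 and Cs2g15310 passed it through late TBO libraries, and peroxidase E5-like through early BTSO libraries.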

How the results depend on the processing

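None of the 53 called values of named members reversed its direction under any alternative, and 46 kept their call under all of them. With a pseudocount of 0.1 the members called were 8 at 0 DAS, 8 at 15 DAS, 11 at 30 DAS, 12 for 90 minus 0 DAS in TBO and 9 in BTSO, and with edgeR on the estimated counts they were 9, 9, 12, 12 and 9, and every member called before was among them. With edgeR at 90 DAS 10 were higher and 5 lower. Leaving out 1 library gave 5 to 5 members at 0 DAS, 4 to 5 at 15 DAS, 5 to 8 at 30 DAS, 11 to 12 at 60 DAS, 10 to 12 at 90 DAS, 7 to 8 in TBO and 5 to 5 in BTSO over storage, and 7 to 10 for the change of the difference, which was 12 with no filter and 11 by the unadjusted p. Upper-quartile scaling shifted the median log2 difference of all genes by -0.16 at 15 DAS and -0.12 at 90 DAS.

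Replicate numbers did not pair the samples, since 4 of 21 same-numbered pairs deviated together (r over 0.1, range -0.11 to 0.18) and 7 libraries correlated best with their own number. The fit with a replicate block called 5, 4, 7, 12 and 11 members from 0 to 90 DAS, 7 in TBO and 5 in BTSO over storage, and 9 for the change, as without the block.

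The table gives no whole read counts per gene, so differences of genes near 1 FPKM carry no counting interval.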

Other observations

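Laccases, copper enzymes that share the oxidation of lignin precursors with class III peroxidases, were described by 7 genes of which 3 were tested. No laccase was called higher in TBO on any day, and none was called lower when storage began. The most lower calls, 2, fell on 60 DAS (4.74% of all genes tested). Days 15, 30 and 90 had 1 lower call each (3.78%, 5.28% and 4.94%). The median log2 difference of the 3 was -1.14 at 60 DAS, beside 0.02 on the last day. Laccase-11-like (Cs1g24250, mean 1.06 FPKM) rose in BTSO by 2.65 over storage (SE 0.24, adjusted p = 1.17e-08) and was lower in TBO at 90 DAS, with a log2 difference of -2.40 (adjusted p = 2.63e-08). Laccase-7-like (Cs6g07400, mean 17.9 FPKM) was lower in TBO at 30 DAS, with a difference of -2.23 (SE 0.41, adjusted p = 9.28e-05), and rose in both varieties from 0 to 90 DAS, by 1.51 in TBO and 1.01 in BTSO. The summed laccase level at 30 DAS was 4.60 to 18.2 FPKM in TBO and 37.9 to 52.8 in BTSO, without overlap.

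Among 4 genes of other oxidant control (alternative oxidase, ferritin and metallothionein descriptions), all tested, a metallothionein-like gene (Cs1g07330), of a family of small cysteine-rich metal-binding proteins, was the only one called between varieties. Its difference was -1.89 at 60 DAS and -2.41 at 90 DAS (SE 0.15, adjusted p = 7.34e-10 and 1.39e-11), and it rose in BTSO by 1.02 (adjusted p = 9.8e-06). Its mean of 7724 FPKM made up most of the summed level of these 4 genes, which was 2799 to 3087 FPKM in TBO and 14362 to 17045 in BTSO at 90 DAS.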
